A study of Mus musculus with 6 samples.

Results

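The aldo-keto reductase 1B genes of the mouse, Akr1b3, Akr1b7, Akr1b8 and Akr1b10, were followed in endothelial cells of embryos at embryonic day 12.5. The 4 genes were chosen by name, as rows of the deposited count table, with their difference between the 2 cell fractions already known. They are 4 of 23420 genes in the table, and 2 of them, Akr1b8 and Akr1b10, had enough counts to be among the 13142 genes tested. All embryos carried Csf1r-iCre, a Cre recombinase under the promoter of the myeloid receptor gene Csf1r, and RosatdTomato, a reporter that turns a recombined cell and its progeny red. Cells with the endothelial protein PECAM1 that lacked CD45, CD11b and KIT were taken from whole embryos by flow sorting and split by the reporter into tdTom+ and tdTom- fractions. The labels give 3 libraries of each, numbered 1 to 3. The reporter records past or present activity of the Csf1r promoter and not a cell's ancestry as such, and whole embryos mix the vessels of all organs.

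Aldo-keto reductases are soluble enzymes that mostly use NADPH to reduce aldehydes and ketones to alcohols. The 1B subfamily handles sugars, retinaldehyde and the reactive aldehydes left by lipid oxidation. Akr1b3 encodes aldose reductase, the enzyme that turns glucose into sorbitol in the polyol pathway. Akr1b7 encodes a reductase known from the vas deferens, adrenal cortex and intestine, Akr1b8 one first described as induced by fibroblast growth factor, and Akr1b10 a further close relative of both.

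Total counts per library ran from 8919887 to 11767956. All 10 endothelial markers examined were measured and none differed by the test, with summed levels of 7570 to 8080 CPM (counts scaled to a common library total) in tdTom+ and 7610 to 7860 CPM in tdTom- libraries. Ptprc, the CD45 gene, was counted at 4 reads or fewer per tdTom+ and 22 or fewer per tdTom- library. Itgam, the CD11b gene, was counted at 6 or fewer and 12 or fewer. Kit, the gene of the KIT receptor, averaged 86.7 ± 5.99 CPM in tdTom+ and 119 ± 6.1 CPM in tdTom- (SD, n = 3). Its RNA was thus counted in cells sorted as lacking KIT. Kit was at -0.46 ± 0.10 on the log2 scale (SE, adjusted p = 0.0581 by edgeR, 0.00495 by DESeq2). Pecam1 averaged 831 ± 57.4 CPM in tdTom+ and 930 ± 36.3 CPM in tdTom-, and Csf1r 6.16 ± 1.24 and 4.25 ± 0.236 CPM (SD, n = 3); neither passed. Nothing in the labels says that the libraries came from separate litters, so spreads are those between these libraries.

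The genes lie together on chromosome 6 (GRCm38, the mm10 build), within 120.7 kb from 34302434 to 34423142, and no other gene of the table lies between them. Akr1b3 (ENSMUSG00000001642.18) spans 34302434 to 34317478 on the minus strand. Akr1b8 (ENSMUSG00000029762.6) spans 34354119 to 34368463, Akr1b10 (ENSMUSG00000061758.13) 34384218 to 34396950 and Akr1b7 (ENSMUSG00000052131.7) 34412334 to 34423142, all on the plus strand. Akr1b3 overlaps Gm14546 and Akr1b7 overlaps Gm13857, each on the opposite strand, and without strand in the libraries reads of such a pair cannot be told apart; Akr1b8 and Akr1b10 overlap no annotated gene. The coding sequences have the same length, 948 bases without the stop codon. Akr1b7 and Akr1b10 share 89.2% of aligned coding bases, Akr1b8 shares 85.4% with Akr1b10 and 84.8% with Akr1b7, and Akr1b3 shares 72.1% to 73.0% with the others.

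RefSeq promoters on GRCm38.p6 were at hand for 3 of the 4 genes and are shown because these close relatives differed in level. Each stretch is 221 bases long, from 250 to 30 bases before the RefSeq start, on the plus strand, and lies upstream of the GENCODE start as well. Capitals mark matches to GGGCGG, the GC box, and to CCGGAAG, a site of ETS transcription factors, on either strand.
Akr1b8, chr6:34353896-34354116: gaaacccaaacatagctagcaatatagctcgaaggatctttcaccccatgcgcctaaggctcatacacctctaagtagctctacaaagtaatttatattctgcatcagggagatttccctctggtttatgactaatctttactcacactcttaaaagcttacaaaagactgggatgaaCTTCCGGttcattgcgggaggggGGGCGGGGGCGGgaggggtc
Akr1b10, chr6:34383997-34384217: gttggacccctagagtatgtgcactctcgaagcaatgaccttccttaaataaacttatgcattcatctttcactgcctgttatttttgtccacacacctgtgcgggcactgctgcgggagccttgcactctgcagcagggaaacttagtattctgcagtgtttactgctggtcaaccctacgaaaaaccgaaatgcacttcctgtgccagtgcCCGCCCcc
Akr1b7, chr6:34412112-34412332: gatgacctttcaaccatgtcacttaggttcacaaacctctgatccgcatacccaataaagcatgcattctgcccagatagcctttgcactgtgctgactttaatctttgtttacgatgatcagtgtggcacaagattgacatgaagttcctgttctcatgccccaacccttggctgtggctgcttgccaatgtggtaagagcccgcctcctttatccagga
The Akr1b8 stretch held 2 adjoining GC boxes and 1 CCGGAAG, the Akr1b10 stretch 1 GC box and no CCGGAAG, and the Akr1b7 stretch neither. Other forms of the ETS site were not searched, so the stretches are not compared for ETS sites in general. A GC box was found in 28.7% and CCGGAAG in 5.04% of 32851 mouse promoter stretches of the same length and position. On either strand, none of the 3 held AGATAA, a site of GATA factors found in 9.06% of all stretches, or TGATAA, a further such site, found in 7.25%. Other forms of the GATA site were not searched, so this does not mean that no GATA site was present. The core of the antioxidant response element, TGACNNNGC, and the AP-1 site, TGANTCA, were also missing; 8.75% and 6.13% of all stretches held them. TATAAA, on the minus strand, was found in Akr1b8 at 1 place and CCAAT in Akr1b7 at 2, and neither in the other stretches, against 9.99% and 31.1% of all stretches. The motifs were picked after the sequences were seen, and a match is a run of letters, not a measured binding site.

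Akr1b8 had the highest count of the 4 genes in every library and was higher in the tdTom+ fraction. It had 793, 602 and 873 counts in tdTom+ libraries 1 to 3 and 194, 219 and 157 in tdTom- libraries 1 to 3. The corresponding levels were 69.6, 55.1 and 81.6 CPM against 18.8, 18.5 and 17.6 CPM. Every tdTom+ library lay above every tdTom- library, and the tdTom- libraries lay close together. The mean was 68.8 ± 13.3 CPM (SD, n = 3) in tdTom+ and 18.3 ± 0.652 CPM (SD, n = 3) in tdTom- cells, and edgeR's log2 fold change was 1.91 ± 0.17 (SE), or 3.75-fold. Because this contrast was known when the genes were chosen, the difference is a description and carries no p-value. In a bulk library, more cells with Akr1b8 RNA and more of it per cell cannot be told apart.

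The same-numbered libraries showed the difference each time. The tdTom+ over tdTom- ratio of Akr1b8 CPM was 3.70 for number 1, 2.97 for number 2 and 4.64 for number 3. Libraries numbered 3 held Xist, the RNA of the inactive X chromosome, at 1224 and 571 counts against at most 8 in the others, and the Y-linked gene Ddx3y at 12 counts or fewer against 1204 or more. Akr1b8 was higher in tdTom+ in this pair, with the sex genes of females, and in the other 2.

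Akr1b10, the neighbour with 85.4% coding identity to Akr1b8, had levels that overlapped between the fractions. It had 150, 83 and 64 counts in tdTom+ and 78, 92 and 78 in tdTom- libraries 1 to 3. The groups overlapped, and tdTom+ library 1 stood above the other 5. The tdTom+ mean was 8.91 ± 3.76 CPM and the tdTom- mean 8.03 ± 0.619 CPM (SD, n = 3), and edgeR's log2 fold change was 0.15 ± 0.36 (SE), 1.76 below that of Akr1b8. Without tdTom+ replicate 1 the value was -0.24 ± 0.34, so that library set the sign. By number the ratio was 1.74, 0.976 and 0.685.

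Akr1b3, the aldose reductase gene, was counted at 6, 7 and 12 reads in tdTom+ and 7, 8 and 7 in tdTom- libraries 1 to 3. Its means of 0.763 ± 0.316 CPM for tdTom+ and 0.713 ± 0.0609 CPM for tdTom- (SD, n = 3) were too low to test, and the log2 ratio of the means was 0.10. That ratio was -0.29 without tdTom+ replicate 3. Much of the Akr1b3 transcript is repeated elsewhere: 86.2% of its 50-base, 80.2% of its 75-base and 74.0% of its 100-base stretches also occurred in annotated transcripts of other genes. The largest part was shared with Gm38056, which held 82.4%, 74.5% and 66.7% of the stretches in that order. The processed pseudogenes Gm6644, Gm6736 and Gm12138 were also among those genes. Of these, Gm6644 was matched to a row of the table, with 0 counts in all libraries. Read length and the handling of reads with several alignments are not given in the sources used here, and the part of this repetition in the low Akr1b3 count was not tested.

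Akr1b7 had 0 counts in all tdTom+ libraries and 1 read in all, in tdTom- replicate 2. A floor of 3 counts corresponds to 0.254 to 0.336 CPM in these libraries, so no level above that floor was detected and no fold is given. The shared part of the 75-base stretches was 5.30% for Akr1b7 and 0.467% and 0.463% for Akr1b8 and Akr1b10, which shared 6 stretches of 75 bases with each other and none of 100. Counts of Akr1b8 and Akr1b10 are still those of close copies and could hold some of each other's reads. With Akr1b7, Akr1b8 and Akr1b10 added into 1 row, the log2 fold change was 1.56 ± 0.16 (SE).

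**Figure D1:**
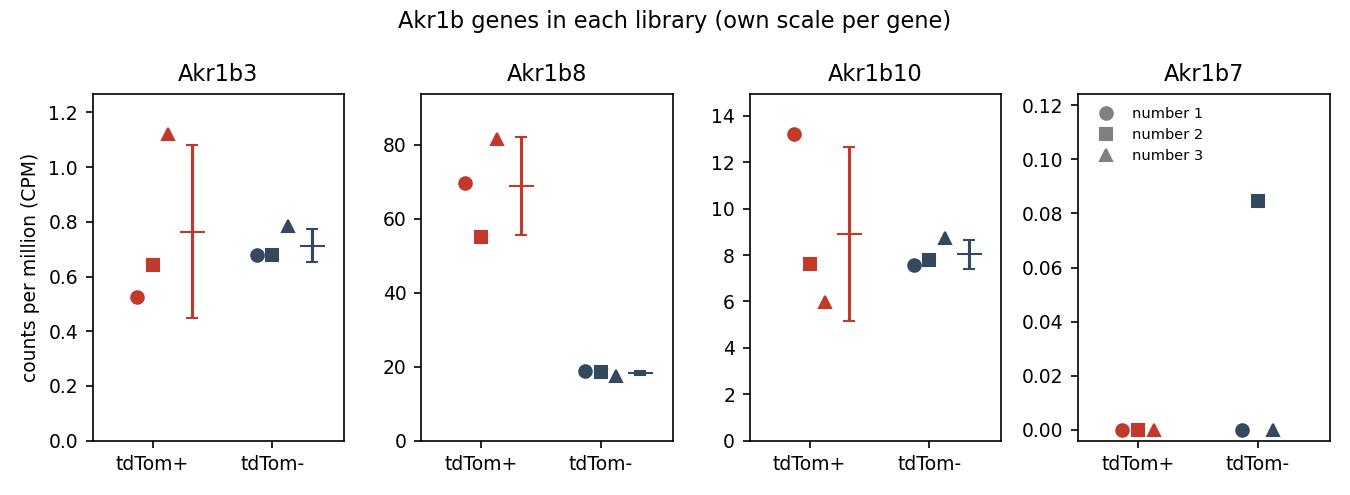
Levels of the 4 genes in CPM (vertical axes, a separate scale for each gene) in the 3 tdTom+ and 3 tdTom- libraries; symbols give the library number, and bars the mean and SD (n = 3) for all but Akr1b7. For Akr1b8 the tdTom+ libraries lie at 55.1 to 81.6 CPM and the tdTom- libraries at 17.6 to 18.8, while the groups overlap for Akr1b3 and Akr1b10 and Akr1b7 is at 0 in all but 1 library.

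Of the 4 genes, Akr1b8 alone passed in the fit across all genes (quasi-likelihood F-test of edgeR, p adjusted over all genes under 0.05), where 1.58% of the tested genes passed in either direction and 0.769% were higher in tdTom+. Its groups did not overlap, as in 17.2% of all tested genes, and those of Akr1b10, the other tested member, did. Since the genes were chosen with this contrast known, nothing is read from these counts. In the authors' deposited table, turned to the same direction, the log2 fold change was 1.908 for Akr1b8 and 0.153 for Akr1b10.

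By counts scaled to transcript length, the order of the 4 genes was Akr1b8, Akr1b10, Akr1b3, Akr1b7 in both fractions. Much of the Akr1b3 transcript is repeated elsewhere, so its count may hold only part of its reads and its place is uncertain. Akr1b8 stood at 50.6 ± 9.77 CPM per kb (SD, n = 3) in tdTom+ and 13.5 ± 0.480 in tdTom- cells. Akr1b10 followed at 6.5 ± 2.74 and 5.86 ± 0.452 CPM per kb, and Akr1b3 at 0.550 ± 0.228 and 0.514 ± 0.0439 (SD, n = 3). Akr1b8 exceeded Akr1b10, and Akr1b10 exceeded Akr1b3, in each of the 6 libraries; Akr1b3 and Akr1b7 were both close to the floor. The Akr1b8 over Akr1b10 ratio of CPM was 5.29, 7.25 and 13.6 in tdTom+ and 2.49, 2.38 and 2.01 in tdTom- libraries 1 to 3.

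The shares of the 4 genes restate the Akr1b8 difference, since a higher Akr1b8 count lowers the share of the others. Akr1b8 gave 83.6%, 87.0% and 92.0% of the reads of the 4 genes in tdTom+ libraries 1 to 3, and 69.5%, 68.4% and 64.9% in tdTom- libraries. Akr1b10 gave 15.8%, 12% and 6.74% against 28%, 28.8% and 32.2%. Neither share overlapped between the fractions. The summed level of the 4 genes was 78.4 ± 13.4 CPM (SD, n = 3) in tdTom+, while all tdTom- libraries stood at 27.1 CPM. These shares and sums use the Akr1b3 count, which may hold only part of its reads.

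The genes whose pattern over the 6 libraries was nearest to that of Akr1b8 were found by the Euclidean distance between log2 CPM profiles, each centred on its own mean. They were Oit3, at a distance of 0.40, Tfec (0.49), Lyve1 (0.49), Ehd3 (0.51) and Maf (0.56), where the median gene stood at 2.42. Oit3, Lyve1 and Ehd3 are genes of liver sinusoidal endothelium, Lyve1 being a hyaluronan receptor and Ehd3 a membrane recycling protein, and Tfec and Maf encode transcription factors. Tfec had 364, 218 and 407 counts in tdTom+ and 108, 84 and 66 in tdTom- libraries 1 to 3, and like Akr1b8 was highest in tdTom+ library 3 and lowest among tdTom+ libraries in number 2. Maf had 318, 288 and 347 counts in tdTom+ and 119, 86 and 64 in tdTom- libraries. Their log2 fold changes, 1.77 for Oit3, 1.85 for Tfec, 1.64 for Lyve1, 1.70 for Ehd3 and 1.74 for Maf, lie near that of Akr1b8 because the distance selected them for it. The likeness rests on 6 libraries and mostly on the step between the fractions.

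**Figure D2:**
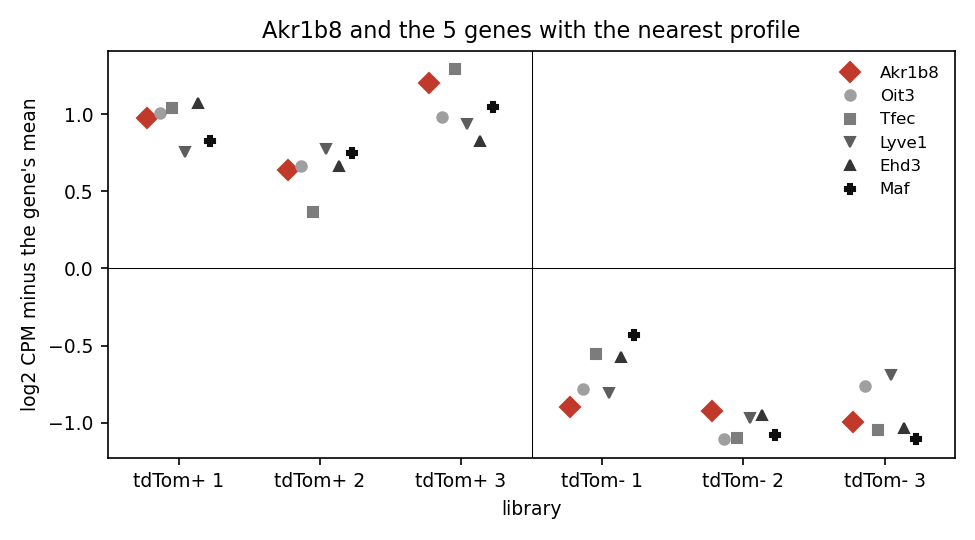
Log2 CPM minus each gene's own mean (vertical axis) in the 6 libraries (horizontal axis) for Akr1b8 and the 5 genes at the smallest distance from it, 0.40 to 0.56. All 6 genes lie above 0 in the tdTom+ and below 0 in the tdTom- libraries.

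Markers of other cell types also moved with the fractions, and their part in the Akr1b8 difference was not tested. Of 9 tested liver sinusoidal markers out of 10, 8 rose (edgeR adjusted p under 0.05). The list summed to 2900 to 3230 CPM in tdTom+ and 1330 to 1450 CPM in tdTom- libraries. Stab1 made up 331 to 353 and Flt4 340 to 373 CPM of the tdTom- sums, and 450 to 557 and 450 to 498 CPM of the tdTom+ sums. No marker of the list was at 0 throughout a fraction, though Fcgr2b had 0 counts in tdTom- libraries 2 and 3. Within the tdTom+ fraction this sum was 3200, 2900 and 3230 CPM in libraries 1 to 3. Its markers did not share 1 order: Lyve1 stood at 545, 553 and 619 CPM and Oit3 at 601, 475 and 591 CPM. Of 9 tested megakaryocyte and platelet markers out of 10, 5 rose. That list summed to 236, 440 and 278 CPM in tdTom+ libraries 1 to 3 and 29.4 to 42.7 CPM in tdTom- libraries. Hepatoblast markers, of which none passed among 8 tested out of 10, summed to 161 to 174 CPM in tdTom+ and 210 to 456 CPM in tdTom- libraries, with Serpina1a at 0 in tdTom+. Macrophage and myeloid markers, with 6 tested of 9 in the table and none passing, summed to 20.6 to 29.2 and 17.6 to 20.9 CPM. Brain endothelial markers fell in 4 of 8 cases, with sums of 1460 to 1680 against 1940 to 2110 CPM. Germ cell markers fell in 4 of 7 tested out of 9, with Dazl, Dppa3, Pou5f1 and Prdm14 at 0 in all tdTom+ libraries and sums of 86.8 to 96.9 against 165 to 225 CPM. Kit, which the sort also used, made up 83.2 to 93.6 CPM of the tdTom+ sums, and without it the other 8 summed to 3.3 to 4.95 CPM in tdTom+ and 52.1 to 101 CPM in tdTom- libraries.

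Along the chromosome, none of the tested flanking genes passed. Only genes of the table were examined, and those taken ran from 31398735 to 35247596, far beyond the close surroundings of the cluster. Of the 8 table genes on each side of the cluster, 13 of 16 were tested and 0 passed (edgeR, adjusted p under 0.05), against 1.58% of all genes; 1 reached an unadjusted p under 0.05, as 10.7% of all genes did, and DESeq2, limma-voom and the fit with a replicate block also called 0. The median log2 fold change of the 13 was -0.04. The nearest gene before the cluster, the sugar nucleotide transporter gene Slc35b4, averaged 78.4 ± 6.74 CPM (SD, n = 3) in the tdTom+ fraction and 75 ± 7.69 CPM in the other. The nearest gene after it, Bpgm, which encodes the bisphosphoglycerate mutase of red cells, had 34.7 ± 7.05 and 50.4 ± 3.83 CPM (SD, n = 3), and edgeR put the log2 fold change at -0.54 ± 0.17 (SE; adjusted p = 0.213). Tmem140 had 22, 24 and 35 counts in tdTom+ and 10 in each tdTom- library, and edgeR gave 1.33 ± 0.69 on the log2 scale (SE; adjusted p = 0.558). The actin-binding protein gene Cald1 stood at -0.02 ± 0.08 (SE). Lrguk had 1 count in all, and Stra8 and 1700012A03Rik had none.

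**Figure D3:**
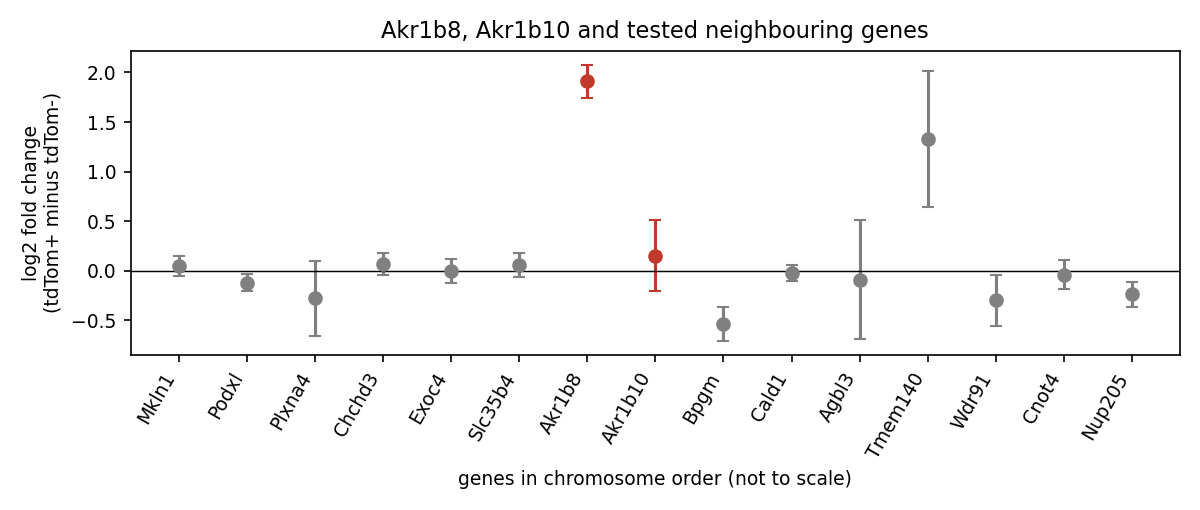
Log2 fold change, tdTom+ minus tdTom- (vertical axis, points with SE), of Akr1b8 and Akr1b10 (red) and the 13 tested flanking genes (grey) in chromosome order. Akr1b8 stands at 1.91, Akr1b10 at 0.15, and the flanking genes between -0.54 and 1.33.

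The other aldo-keto reductases did not pass in either direction. Of 16 genes, 8 were tested and 0 were called by edgeR, DESeq2, limma-voom or the blocked fit, while 1 reached an unadjusted p under 0.05 in edgeR, as 10.7% of all tested genes did. The median log2 fold change of the 8 was -0.14, beside 0.00 for all tested genes. Akr1a1, which encodes the general aldehyde reductase, had the most reads of them, with 8006, 8415 and 7320 counts in tdTom+ and 7105, 8179 and 7005 in tdTom- libraries 1 to 3. It stood at -0.01 ± 0.08 on the log2 scale (SE), with edgeR's adjusted p at 0.992. Akr1c14, a hydroxysteroid dehydrogenase gene, averaged 10.3 ± 4.44 and 18.8 ± 5.25 CPM (SD, n = 3), in that order, and differed by -0.87 ± 0.36 on the log2 scale (SE), with edgeR's adjusted p at 0.394. Akr7a5 stood at -0.28 ± 0.16 and Akr1c13 at 0.40 ± 0.33 (SE). Akr1c12 and Akr1c13 belong to a cluster of near-identical copies, so their counts are uncertain.

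The pathways that the 1B enzymes work in were read from lists of other genes. Over their union of 124 genes, 91 were tested; 0 rose and 5 fell, or 5.49%, where 1.58% of all genes passed, 0.769% rising and 0.814% falling (edgeR adjusted p under 0.05). At an unadjusted p under 0.05, 11 were higher and 15 lower, beside 4.76% and 5.94% of all tested genes. DESeq2 called 3 higher and 7 lower, beside 1.35% and 1.87% of all genes to which it gave an adjusted p. For limma-voom the counts were 0 and 3, beside 0.525% and 0.601%. The 5 that fell were Slc2a1, Gsta4, Stra6, Ptgis and Fgfr3, of which limma-voom kept the first 3. The 3 higher calls of DESeq2 were Hmox1, Ptgs1 and Tbxas1. The count of lower calls was 0 without tdTom- replicate 2, and 1 without tdTom+ replicate 1, tdTom- replicate 1 or tdTom- replicate 3.

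In the polyol pathway, glucose enters the cell, is reduced by aldose reductase and is then oxidised to fructose by sorbitol dehydrogenase. Of 5 tested genes of 7 in the table, 1 fell and 0 rose, with a median of 0.05. The one that fell was the glucose transporter gene Slc2a1, from 918 ± 49.4 CPM in tdTom- to 704 ± 31.4 CPM in tdTom+ cells (SD, n = 3; log2 fold change -0.38 ± 0.07 (SE), with edgeR's adjusted p at 0.0191); it is also a brain endothelial marker. Leaving out tdTom+ replicate 1, tdTom- replicate 2 or tdTom- replicate 3 ended its call (edgeR, adjusted p 0.0673 to 0.0949). Sord, for sorbitol dehydrogenase, had 176, 189 and 212 counts in tdTom+ and 101, 156 and 83 in tdTom- libraries. Its groups did not overlap in CPM, but the difference, 0.70 ± 0.25 on the log2 scale (SE), missed the threshold (edgeR, adjusted p = 0.294). Genes of the osmotic stress response, among whose known targets is aldose reductase, gave 0 calls among 8 tested by edgeR, DESeq2 and limma-voom, with a median of 0.11 and 3 at an unadjusted p under 0.05, beside 10.7% of all tested genes. Of these, the taurine transporter gene Slc6a6 stood at -0.27 ± 0.08 and the inositol transporter gene Slc5a3 at 0.32 ± 0.15 (SE, edgeR adjusted p = 0.192 and 0.466).

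Clearance of reactive aldehydes is a known task of the 1B enzymes. Of 17 tested genes of 20 in that list, 1 fell and 0 rose, with a median of 0.09. Gsta4, which encodes the glutathione transferase for hydroxynonenal, fell. It had 118, 98 and 90 counts in tdTom+ and 378, 279 and 190 in tdTom- libraries 1 to 3, or -1.55 ± 0.26 on the log2 scale (SE), with edgeR's adjusted p at 0.0153. All its tdTom+ libraries lay below all its tdTom- libraries, the reverse of Akr1b8. Its call ended without tdTom- replicate 1 or 2 (adjusted p = 0.109 and 0.0533). Gstp1, Ptgr1 and Ptgr2, for a glutathione transferase and 2 reductases of unsaturated carbonyls, had log2 fold changes of 0.48 ± 0.20, 0.70 ± 0.32 and 0.32 ± 0.14 (SE) and did not pass.

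Retinoid genes, which serve the supply, oxidation and breakdown of vitamin A, were mostly lower in value. Of 16 tested of 23, 14 had a log2 fold change below 0, the median was -0.42, and 1 fell by the test. Stra6, the gene of the retinol uptake receptor, had 210, 129 and 236 counts in tdTom+ and 520, 515 and 352 in tdTom- libraries, or -1.35 ± 0.23 on the log2 scale (SE), with edgeR's adjusted p at 0.0177. Leaving out tdTom+ replicate 1, or any single tdTom- library, ended its call (edgeR, adjusted p 0.0652 to 0.109). The retinoic acid carrier gene Crabp2, at -1.38 ± 0.38, and Cyp26b1, whose enzyme breaks retinoic acid down, at -1.11 ± 0.36 (SE), did not pass (edgeR adjusted p = 0.125 and 0.231). Crabp2 passed with the replicate block (adjusted p = 0.045) and with DESeq2 (0.0214), and Cyp26b1 without tdTom+ replicate 3 (0.0488). Aldh1a2, whose enzyme oxidises the retinaldehyde that 1B enzymes can reduce, had 5, 1 and 75 counts in tdTom+ and 76, 53 and 75 in tdTom- libraries, and was named after its values were seen. It stood at -1.42 ± 1.02 (SE, edgeR adjusted p = 0.708), and without tdTom+ replicate 3 at -4.60 (adjusted p = 0.0144). Beside these, mesenchyme and mural markers, none of 10 passing, summed to 99.4 to 351 CPM in tdTom+ and 196 to 597 CPM in tdTom- libraries. None was at 0 throughout a fraction, Twist2 had 0 counts in tdTom+ library 2, and the 351 CPM belonged to tdTom+ library 3. Their part in the retinoid values was not tested.

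Some 1B enzymes can also form prostaglandin F from its precursor. Of 10 tested prostaglandin genes of 13, 1 fell and 0 rose, with a median of 0.08. Ptgis, for prostacyclin synthase, averaged 22.2 ± 1.62 and 37.7 ± 2.48 CPM (SD, n = 3), tdTom+ first, and edgeR's log2 value was -0.76 ± 0.16 (SE; adjusted p = 0.0457). With the replicate block the call ended (adjusted p = 0.0584), as it did with limma-voom (0.059) and without any 1 of the 6 libraries (0.0803 to 0.218). Ptgs1, for cyclooxygenase 1, stood at 0.44 ± 0.12 (SE, edgeR adjusted p = 0.122). Tbxas1, for the thromboxane synthase of platelets, had 73, 79 and 11 counts in tdTom+ and 0, 6 and 9 in tdTom- libraries, which edgeR put at 3.27 ± 1.06 on the log2 scale (SE; adjusted p = 0.222). The summed platelet markers given above were higher in all tdTom+ than in all tdTom- libraries, and their part in Tbxas1 was not tested.

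Targets of the oxidative stress factor NRF2 and enzymes that supply NADPH, a cofactor of most aldo-keto reductases, gave 0 calls among 17 tested genes. Their median was -0.01, and 2 reached an unadjusted p under 0.05 in edgeR, beside 10.7% of all tested genes. DESeq2 called 1, the haem oxygenase gene Hmox1, and limma-voom 0. Hmox1 averaged 101 ± 10.9 and 70.2 ± 7.0 CPM (SD, n = 3), tdTom+ first, a log2 difference of 0.53 ± 0.13 (SE; edgeR, adjusted p = 0.0724, or 0.0445 without tdTom+ replicate 3). G6pdx, for the first enzyme of the pentose phosphate pathway, stood at -0.27 ± 0.14 and Gclc, for glutathione synthesis, at -0.42 ± 0.15 (SE). Of 5 tested fibroblast growth factor ligand and receptor genes of 7, 1 fell and 0 rose, with a median of -0.58. This was Fgfr3, with 37, 39 and 15 counts in tdTom+ and 184, 150 and 72 in tdTom- libraries, or -2.23 ± 0.45 on the log2 scale (SE), with edgeR's adjusted p at 0.0359. Leaving out any 1 of the 6 libraries ended its call (edgeR, adjusted p 0.0504 to 0.249), and limma-voom gave 0.0822. Fgf1, for acidic fibroblast growth factor, stood at 0.90 ± 0.69 (SE, edgeR adjusted p = 0.738).

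Akr1b7 is known from steroid-forming cells of the adrenal. Of 11 genes active in such cells of the adrenal and gonad, 5 were tested, and 0 were called or reached an unadjusted p under 0.05 in edgeR, nor did DESeq2 or limma-voom call any. The list summed to 276 to 302 CPM in tdTom+ and 248 to 275 CPM in tdTom- libraries. Most of its reads came from genes that many other cells also use: Scarb1, for a lipoprotein receptor, had 1890 to 2541 counts per library, and Fdx1, for the electron carrier ferredoxin, 327 to 491. Star, for the protein that brings cholesterol into mitochondria, had 28, 22 and 4 counts in tdTom+ and 22, 26 and 26 in tdTom- libraries. Nr5a1, the defining transcription factor gene, had 28, 21 and 18 counts in tdTom+ and 12, 18 and 6 in tdTom- libraries. Cyp21a1 and Cyp11b1 were at 0 in all 6 libraries, and Cyp11a1 and Hsd3b1 at 0 in the tdTom+ libraries. The 6 narrower markers of these cells summed to 2.06 to 5.44 CPM in tdTom+ and 3.58 to 4.74 CPM in tdTom- libraries.

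**Figure D4:**
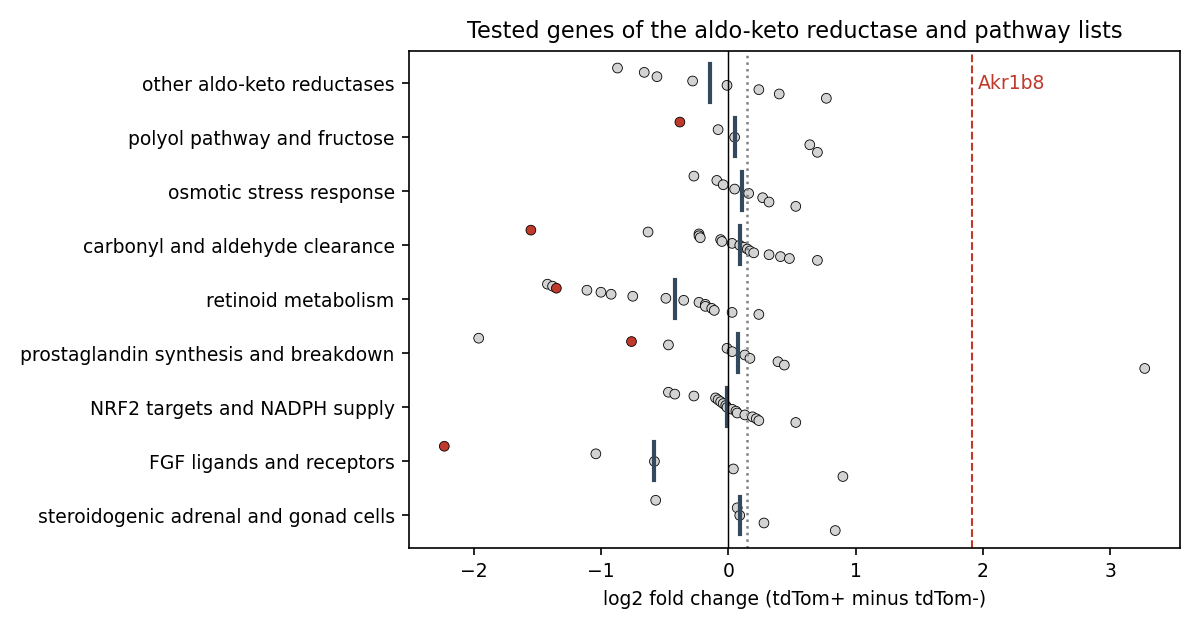
Log2 fold change, tdTom+ minus tdTom- (horizontal axis), of each tested gene in the 9 lists (rows); red points passed edgeR's test, grey points did not, and blue bars are list medians. The dashed line marks Akr1b8 at 1.91 and the dotted line Akr1b10 at 0.15; list medians lie between -0.58 and 0.11.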

How the data were processed

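RNA was amplified with the SMART-seq v4 kit and made into Nextera XT libraries, per the labels' protocols; these steps keep neither strand nor molecular identifiers, so floors cover counting error only. Per the submitters' processing notes the mm10 build was used, and the tools were featureCounts 1.4.6, Picard 2.7.1.1, STAR 2.5.2b, Trimmomatic 0.36.4 and DESeq2, whose roles are not given. The authors deposited 1 table of raw read counts per gene symbol, used here as deposited. From the same table, the authors' log2 fold change (tdTom- over tdTom+) was turned round where printed. The authors' deposited p-values, fold ratio, mean signal and other model columns, and the normalized counts that they rounded to whole numbers (listed here as a score), were not used.

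Groups came from the sample titles. The test was edgeR 4.0.16 in R 4.3.3 (TMM scaling, filterByExpr at its count minimum of 10, robust quasi-likelihood F-test, two-sided, Benjamini-Hochberg over 13142 genes, threshold 0.05), without a block. The SE was taken as the absolute log2 fold change over the root of F. CPM uses TMM-scaled library sizes, and log2 CPM a prior count of 2. CPM per kb divides by the longest protein-coding transcript in GENCODE M21. The script was tested on simulated data with known changes. It recovered 40% of 1.5-fold, 68% of 2-fold, 82% of 4-fold and 92% of 8-fold changes, and 7.84% of its calls were false. A gene that did not pass may therefore still differ. No pair of libraries of a group agreed within sampling noise (mean chi-square per gene 8.18 to 19.7). The protocol divides the cells of 3 embryos into both fractions. Deviations of same-numbered libraries correlated at 0.11, 0.089 and 0.16, and those of differently numbered libraries at -0.15 to 0.06. Same numbers were taken as pairs because of that protocol and the sex genes. The sex genes set only number 3 apart and cannot tell number 1 from number 2. DESeq2 1.42.0, limma 3.58.1 (voom), other scalings and filters, the block and leaving out each library were alternatives.

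The genes, lists and motifs were chosen with earlier results of these data known. Named were the 4 Akr1b genes, up to 4 tested members of each pathway list with the smallest p, the 5 nearest patterns, the 8 table genes on each side of the cluster and the sort genes, not all of which are reported here. Serpina1a, Trf, Dlk1, Alb, Nes, Stab1, Flt4, Dazl, Dppa3, Pou5f1, Prdm14, Akr1a1, Cyp21a1, Cyp11b1, Cyp11a1, Hsd3b1, Fcgr2b and Twist2 were named after their values were seen. Erythroid and neural markers summed to 269 to 351 and 221 to 234 CPM in tdTom+ and 224 to 329 and 243 to 260 CPM in tdTom- libraries, with 1 of 9 and 0 of 6 tested markers called. Nes alone made up 205 to 212 CPM of the neural sums in tdTom+ and 207 to 222 CPM in tdTom- libraries.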

Additional observations from a re-analysis of the deposited data

How the results depend on the processing

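The Akr1b8 log2 fold change of 1.91 stayed between 1.88 and 1.91 under the other scalings, filters and tools, was 1.89 with the replicate block, ran from 1.77 to 2.04 without 1 library, and was 1.56 with its 2 close relatives added in. Without 1 library, Akr1b10 ran from -0.24 to 0.37, the Akr1b3 ratio from -0.29 to 0.30, and the Akr1b8 share from 85.3% to 89.5% in tdTom+ and from 66.7% to 69.0% in tdTom-. Of all genes, 101 were called higher and 107 lower. DESeq2 called 209 and 288, the replicate block 128 and 167, and leaving out 1 library 37 to 97 higher and 25 to 92 lower. Of the pathway genes, 0 were called higher and 5 lower. DESeq2 called 3 higher, limma-voom 3 lower, and leaving out 1 library 0 to 1 higher and 0 to 6 lower. For Fgfr3, Gsta4, Ptgis, Slc2a1, Stra6, Kit and Pecam1 together, 24 values in the alternatives lost their call, 3, all of Kit, gained one, and 64 did neither; none of these 7 genes changed sign. Some other pathway genes gained a call under an alternative, as given in part beside their values. The replicate block ended the call of Ptgis and of no other pathway gene named as fallen. The counts of Akr1b3 and Akr1b7 were too low for the test.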
